A study of Homo sapiens with 12 samples.

Results

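Marker genes of the proximal tubule of the kidney and of its injury were followed in HK-2 cells, an immortalised line of human renal proximal tubular epithelial cells. They were 41 listed genes for the brush border, transport, endocytosis, metabolism, nephron transcription factors and tubular injury, chosen by name from 26334 gene symbols, and all 41 were in the table. The cells carried a PRCC-TFE3 fusion gene that doxycycline (Dox) switches on. PRCC-TFE3 joins PRCC to the transcription factor gene TFE3 and occurs in translocation renal cell carcinoma. There were 4 groups of 3 libraries, all harvested after 48 h: Dox plus MSC2530818, Dox with DMSO, MSC2530818 at 100 nM without Dox, and DMSO vehicle without Dox. MSC2530818 inhibits CDK8 and CDK19, the kinases of the Mediator complex. Cells of all 4 groups carried the inducible construct and grew with 1.5% Tet-approved serum, puromycin and blasticidin S, so no group separates Dox itself from the fusion, and whether the line is 1 clone is not given in the sources used here.

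The proximal tubule reclaims most of the filtered glucose, phosphate, amino acids, bicarbonate and protein. Transporters and peptidases sit in its apical brush border on PDZ scaffold proteins, and filtered protein is taken up by the receptors megalin (LRP2) and cubilin (CUBN). After injury, tubule cells lose much of this equipment and make injury proteins such as KIM-1 (HAVCR1) and osteopontin (SPP1). Lines kept in culture are known to lose part of the tubule programme as well.

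Poly(A) RNA levels were given as FPKM, which adjusts fragment numbers for transcript length and library size, so levels of different genes can be set side by side. FPKM sums per library ran from 429208 to 473950, with replicate 1 highest in each group, and absolute depth is unknown. A gene was tested when it reached an FPKM of 1 in at least 3 of the 12 libraries, which left 12649 genes. Each change is a difference of log2(FPKM + 1) ± SE, a scale that shrinks differences between low values. A gene was called when its two-sided p from limma, Benjamini-Hochberg adjusted over all tested genes, was under 0.05. TFE3 averaged 84.2 FPKM with Dox plus MSC2530818 and 149.7 FPKM with Dox, against 27.8 FPKM with MSC2530818 and 35.8 FPKM in vehicle. The TFE3 level with Dox was thus lower with the inhibitor than without it, reads of the fusion and of the resident genes are not separated in these values, and the part of this in the results was not tested. In bulk RNA, fewer cells of a kind and less RNA per cell cannot be told apart.

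Few of the genes that define a proximal tubule cell in the kidney were present. Of the 41 genes 17 were tested, 16 of them at an FPKM of 1 or more in all 12 libraries, and 24 were not. Of these 24, 22 never reached an FPKM of 1, 15 never exceeded 0.1, and 3 were listed at 0 in every library (the organic anion transporter genes SLC22A6 and SLC22A8 and the adhesion gene VCAM1). LRP2 was listed at 0.01 FPKM in 1 library and at 0 in the other 11. HNF4A, a transcription factor of proximal tubule differentiation, never exceeded 0.03 FPKM. The phosphate transporter gene SLC34A1 stayed at or below 0.07 FPKM and the aminopeptidase gene ANPEP at or below 0.05 FPKM. Of 10 defining proximal tubule markers 3 reached an FPKM of 1 in any library, namely GGT1, MME and, in a single library, the glucose transporter gene SLC5A2. Of the other transporter genes, SLC34A2 and SLC34A3 (phosphate) were at most 0.07 FPKM, SLC5A1 (glucose) and SLC5A12 (lactate) at most 0.02 FPKM, and SLC22A2 (organic cations) and SLC13A3 (dicarboxylates) at most 0.06 FPKM.

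**Figure D1:**
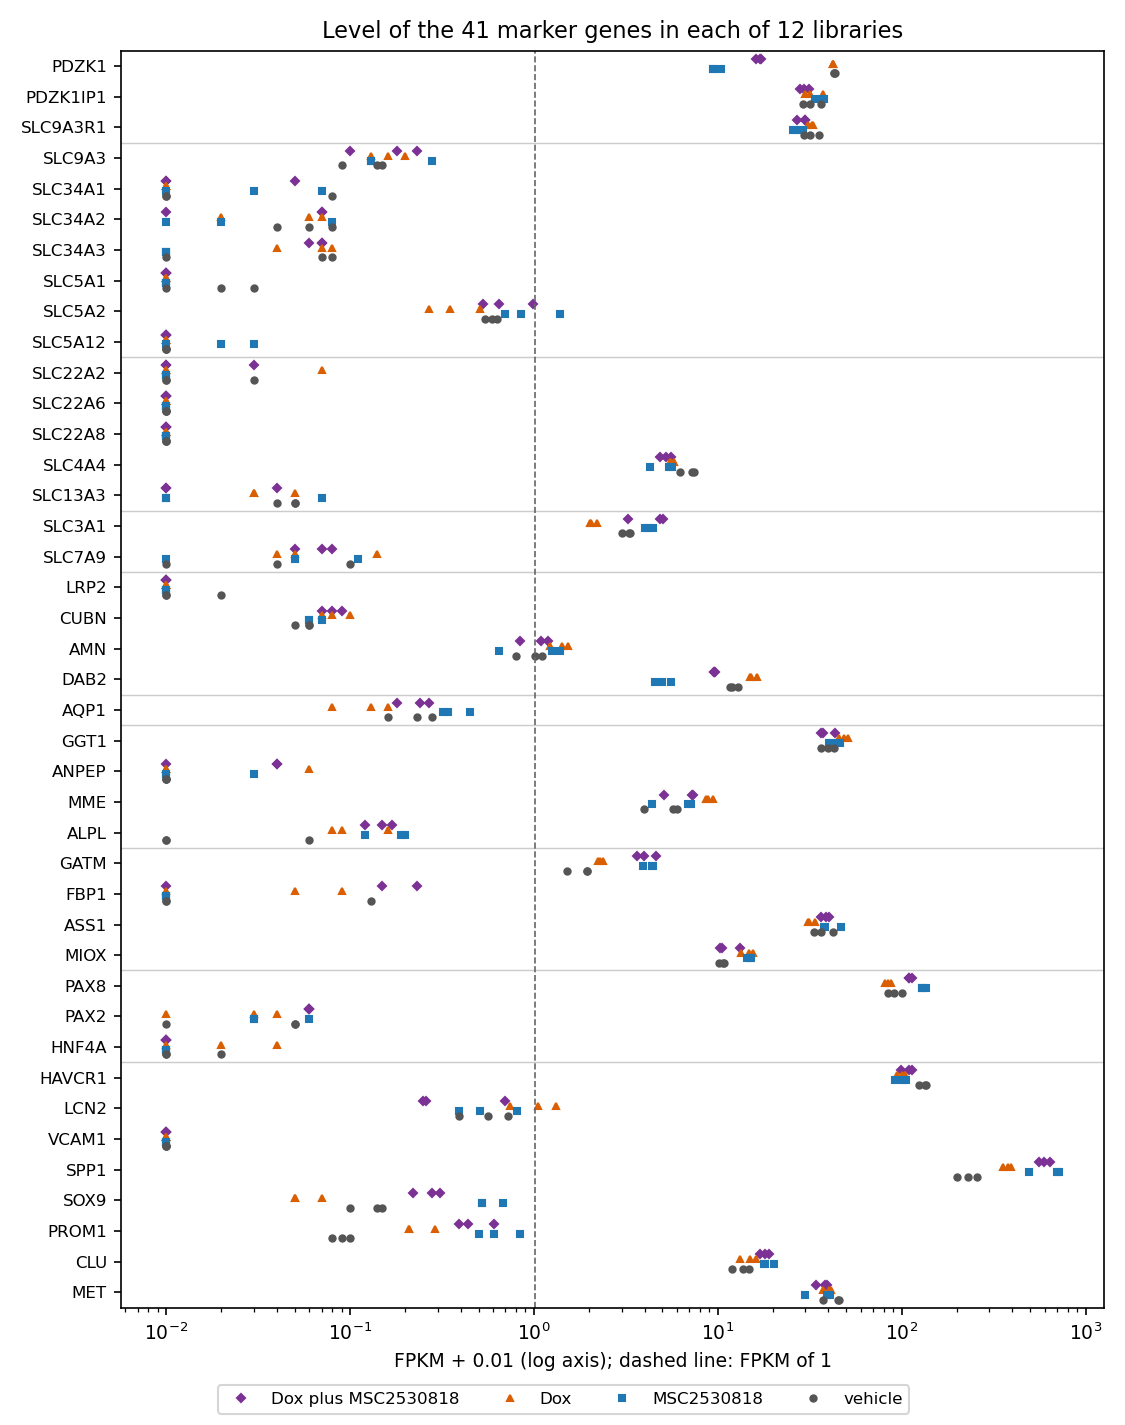
FPKM + 0.01 on a log axis for all 41 genes, 1 point per library, with colour and shape giving the group, and grey lines separating scaffold, apical transport, basolateral transport, amino acid transport, endocytosis, water channel, brush border enzyme, metabolism, transcription factor and injury genes. Most transporter genes lie left of the dashed line at an FPKM of 1, and SPP1 lies farthest right.

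Ordered by level over the 12 libraries, SPP1 stood first, from 199 to 718 FPKM. PAX8 (81.6 to 135 FPKM) and HAVCR1 (92.2 to 136 FPKM) came next, with ranges that overlapped. GGT1 (36.3 to 51.2 FPKM), MET (29.8 to 45.9 FPKM), ASS1 (30.8 to 46.6 FPKM), PDZK1IP1 (27.8 to 37.7 FPKM) and SLC9A3R1 (25.7 to 35.7 FPKM) formed a middle tier whose ranges overlapped as well. CLU, MIOX and DAB2 lay between 4.54 and 20.1 FPKM, and MME, SLC4A4, SLC3A1, GATM and AMN between 0.64 and 9.37 FPKM. PDZK1 crossed tiers, from 9.42 to 43.3 FPKM.

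More of these genes were called with the inhibitor than with Dox, as was the case over all genes. With MSC2530818 alone, 5 of the 17 tested genes rose and 5 fell, a share to be read against the 38% of all 12649 tested genes called in that comparison. With the inhibitor in Dox-treated cells 5 rose and 4 fell (32.1% of all genes called). Dox without inhibitor raised 5 and lowered 2 (17.9% of all genes called), and Dox in the presence of the inhibitor raised 2 and lowered 2 (18.2%). The interaction subtracts the Dox change seen without inhibitor from the one seen with it, and was called for 4 genes, 3 higher and 1 lower (2.82% of all genes called). These comparisons share libraries, so the counts are not independent. Single libraries decided some of them: 4 genes were called for Dox alone without Dox replicate 1 or 3, 2 for Dox with the inhibitor without MSC2530818 replicate 2 or Dox plus MSC2530818 replicate 3, and 2 for the interaction without Dox replicate 1 or Dox plus MSC2530818 replicate 2 or 3. Of the 17 genes, 13 were called somewhere, while PDZK1IP1, AMN, ASS1 and MET were called in none. The median change of the 17 was 0.12 with MSC2530818 alone, against -0.12 over all tested genes. For the inhibitor with Dox the medians were -0.09 and -0.08, for Dox alone 0.03 and 0.04, and for Dox with the inhibitor -0.03 and 0.08. After median-ratio scaling of the libraries, which moved the median of all genes by 0.11 for MSC2530818 alone, 7 genes were higher and 4 lower in that comparison. The same scaling gave 6 higher and 3 lower for the inhibitor with Dox, 4 and 3 for Dox alone, and 2 and 3 for Dox with the inhibitor.

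**Figure D2:**
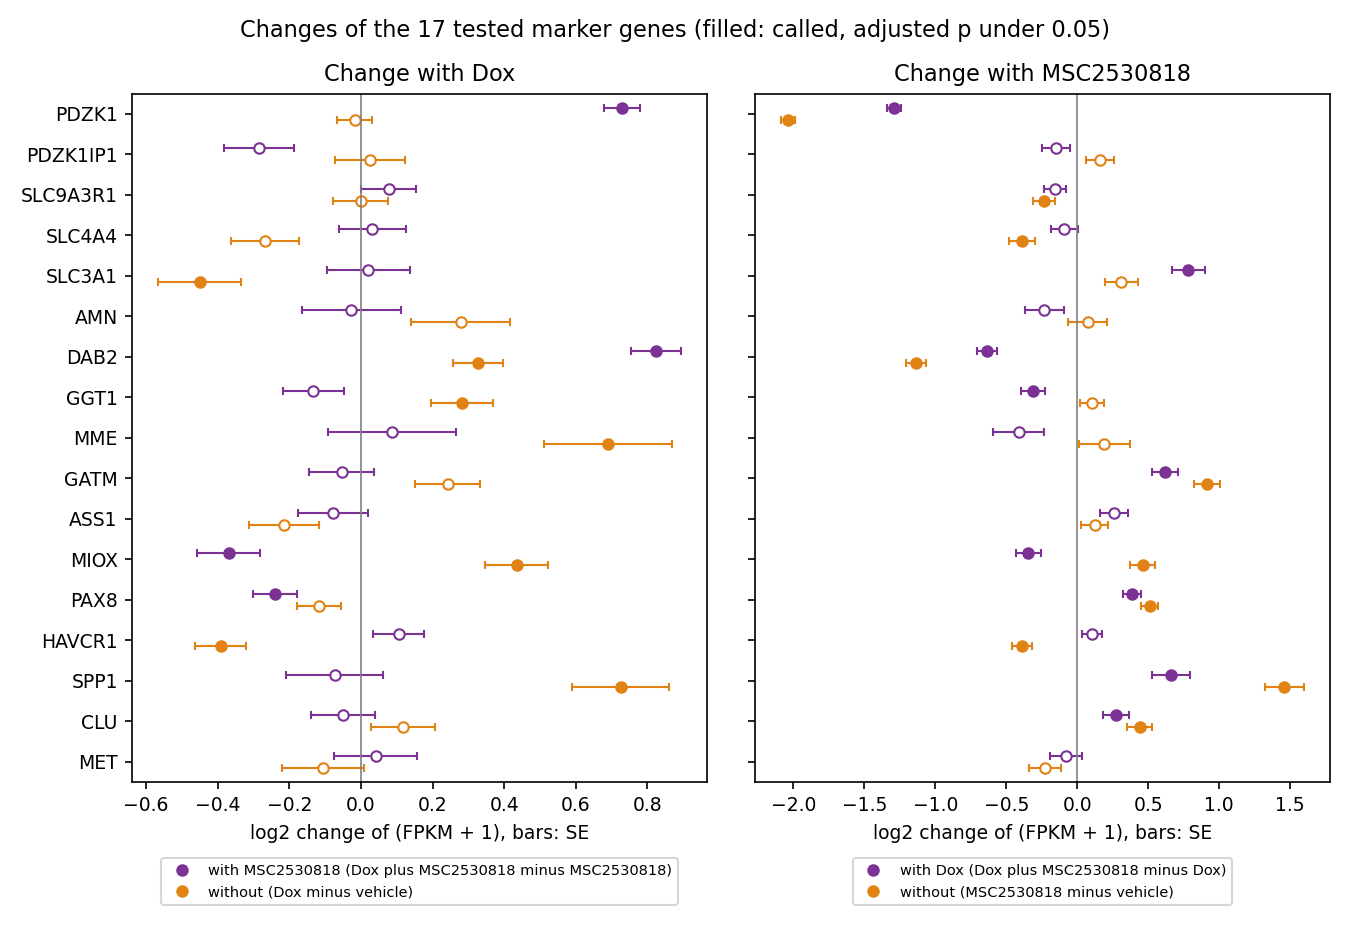
Log2 change of (FPKM + 1), ± SE, for the 17 tested genes. The left panel gives the change with Dox, with and without MSC2530818, and the right panel the change with MSC2530818, with and without Dox; filled points are called. PDZK1 at -2.04 and SPP1 at 1.46 mark the ends of the right panel, and MIOX changes sign between conditions in both.

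PDZK1, a scaffold with several PDZ domains that anchors transporters at the brush border, changed more than any other of these genes. It lies on chromosome 1, 145670852 to 145708148, minus strand, GRCh38. Its values were 17.1, 17.2 and 16.1 FPKM with Dox plus MSC2530818, 42.5, 42.4 and 42.5 FPKM with Dox, 9.43, 10.4 and 9.42 FPKM with MSC2530818 and 42.7, 43 and 43.2 FPKM in vehicle. The groups with the inhibitor lay far below those without it and did not overlap with them, whereas Dox and vehicle libraries lay within 1 FPKM of each other. PDZK1 changed by -2.04 ± 0.05 (adjusted p = 2.2e-09) with MSC2530818 alone and by -1.29 ± 0.05 (adjusted p = 2.8e-08) with the inhibitor in Dox-treated cells. Without inhibitor the Dox change was -0.02 ± 0.05 (95% interval -0.13 to 0.09, adjusted p = 0.82). With the inhibitor, Dox raised PDZK1 by 0.73 ± 0.05 (adjusted p = 1.1e-05), to 16.8 ± 0.607 FPKM with Dox plus MSC2530818, against 9.74 ± 0.54 FPKM with MSC2530818 (SD, n = 3 each). The interaction was 0.75 ± 0.07 (adjusted p = 3.0e-04), so the Dox change differed between cells with and without inhibitor, a call that ended without replicate 2 of all groups (0.77, adjusted p = 0.1). The pseudogene PDZK1P1 never exceeded 0.45 FPKM, and reads shared by the 2 could be assigned to either.

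The other scaffold gene, SLC9A3R1, and PDZK1IP1 differed less between groups. SLC9A3R1, which encodes the scaffold NHERF1, had 29.6, 29.8 and 26.9 FPKM with Dox plus MSC2530818, 30.9, 32.6 and 33 FPKM with Dox, 29.2, 26.7 and 25.7 FPKM with MSC2530818 and 35.7, 31.9 and 29.3 FPKM in vehicle. It was called as lower with MSC2530818 alone, at -0.24 ± 0.08 (adjusted p = 0.032), although the lowest vehicle library lay only just above the highest inhibitor library. That call ended after median-ratio scaling (-0.12, adjusted p = 0.28) and quantile normalization (-0.15, adjusted p = 0.14), when only the groups compared were fitted (adjusted p = 0.1), and without any one of vehicle replicates 1 or 2 or MSC2530818 replicates 2 or 3 (changes of -0.24 to -0.16, adjusted p 0.073 to 0.1). PDZK1IP1, a small membrane protein that binds PDZK1, ranged from 27.8 to 31.3 FPKM with Dox plus MSC2530818, 29.9 to 37.5 FPKM with Dox, 33.7 to 37.7 FPKM with MSC2530818 and 29.1 to 36.4 FPKM in vehicle. Its Dox change with the inhibitor was -0.29 ± 0.1 (adjusted p = 0.063), past the threshold with the replicate number as a block (adjusted p = 0.029) and after either rescaling.

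The promoter windows of PDZK1, DAB2 and SPP1 are shown because these genes had the largest changes with MSC2530818 alone; in Dox-treated cells the change of SLC3A1, for which no window was found, exceeded those of DAB2 and SPP1. Each runs 5′ to 3′ along the gene's strand, from 250 bases before to 50 bases after a start in RefSeq on GRCh38.p14: PDZK1 at chr1:145707351-145707650, minus strand (1 of 2 windows), DAB2 at chr5:39424931-39425230, minus strand, and SPP1 at chr4:87975464-87975763, plus strand. Capitals mark motif matches, of which DAB2 and SPP1 had none. Both strands were searched for the MiT/TFE core CACGTG, the related E-box CACATG and the HNF4-type motif CAAAGTCCA.
PDZK1: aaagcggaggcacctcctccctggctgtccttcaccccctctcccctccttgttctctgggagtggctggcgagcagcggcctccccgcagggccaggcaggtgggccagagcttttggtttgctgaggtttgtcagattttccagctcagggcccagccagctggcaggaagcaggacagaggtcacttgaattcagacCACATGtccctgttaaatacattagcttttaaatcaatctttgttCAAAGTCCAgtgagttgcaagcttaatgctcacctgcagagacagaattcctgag
DAB2: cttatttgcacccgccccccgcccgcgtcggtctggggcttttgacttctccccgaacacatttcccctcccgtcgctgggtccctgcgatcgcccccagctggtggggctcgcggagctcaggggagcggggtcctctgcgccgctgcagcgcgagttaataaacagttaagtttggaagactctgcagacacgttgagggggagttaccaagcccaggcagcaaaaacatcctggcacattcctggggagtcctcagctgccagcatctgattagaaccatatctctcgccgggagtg
SPP1: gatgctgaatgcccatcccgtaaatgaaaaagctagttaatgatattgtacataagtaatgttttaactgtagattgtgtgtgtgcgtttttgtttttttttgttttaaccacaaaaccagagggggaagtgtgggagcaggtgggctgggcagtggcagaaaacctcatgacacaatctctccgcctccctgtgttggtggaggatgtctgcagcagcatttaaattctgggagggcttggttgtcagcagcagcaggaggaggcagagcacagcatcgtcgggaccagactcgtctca

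CACATG lay at base 201 and CAAAGTCCA at base 246 of the PDZK1 window, counted from its 5′ end. Windows were found for 35 of the 41 genes, 56 windows in all, because some genes have several starts. CACGTG was in 5 of the 56 windows (ALPL, AMN, ASS1, MET and SLC34A2) and in 7.26% of all 35116 windows. CACATG was in 8 (HAVCR1, MME, PDZK1, SLC34A2, SLC34A3 and SLC4A4), against 11.1% of all windows. CAAAGTCCA was in both PDZK1 windows, which overlap, and in 0.384% of all. A match describes these letters and does not show binding, and HNF4A itself was at most 0.03 FPKM in any library.

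Among the transporter genes only SLC4A4 and SLC3A1 were tested. SLC4A4 encodes the basolateral sodium bicarbonate cotransporter and had 4.82, 5.23 and 5.58 FPKM with Dox plus MSC2530818, 5.47, 5.57 and 5.77 FPKM with Dox, 4.29, 5.4 and 5.6 FPKM with MSC2530818 and 6.2, 7.27 and 7.43 FPKM in vehicle. All vehicle libraries lay above all others. The change was -0.39 ± 0.09 (adjusted p = 0.0072) with MSC2530818 alone and -0.27 ± 0.09 with Dox alone, which missed the threshold (adjusted p = 0.073) but passed it after median-ratio scaling (adjusted p = 0.04), after quantile normalization (adjusted p = 0.004) and with the replicate block (adjusted p = 0.012). SLC3A1, the heavy subunit of the cystine transporter of the brush border, had 3.23, 5 and 4.82 FPKM with Dox plus MSC2530818, 2, 2.19 and 2.03 FPKM with Dox, 4.18, 4.03 and 4.43 FPKM with MSC2530818 and 3, 3.32 and 3.28 FPKM in vehicle. It was lowest with Dox, where no library overlapped with another group. SLC3A1 changed with Dox alone by -0.45 ± 0.12 (adjusted p = 0.019), and this call ended without any one of vehicle replicate 2 or Dox replicates 1 or 3 (changes of -0.44 to -0.43, adjusted p 0.064 to 0.068). In Dox-treated cells the inhibitor raised it by 0.78 ± 0.12 (adjusted p = 3.9e-04), and with MSC2530818 alone the change was 0.31 ± 0.12 (adjusted p = 0.052), which passed the threshold after either rescaling and with the block. SLC7A9, the light subunit that pairs with it, never exceeded 0.13 FPKM.

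DAB2, the adaptor that links megalin to clathrin in endocytosis, followed the same order of groups under the inhibitor as PDZK1. It lies on chromosome 5, 39371675 to 39462300, minus strand, GRCh38 and had 9.71, 9.53 and 9.59 FPKM with Dox plus MSC2530818, 15.1, 15 and 16.4 FPKM with Dox, 4.54, 4.94 and 5.55 FPKM with MSC2530818 and 11.9, 11.7 and 12.9 FPKM in vehicle. All 4 groups were apart, with Dox highest and MSC2530818 lowest. DAB2 changed by -1.13 ± 0.07 (adjusted p = 5.8e-07) with MSC2530818 alone and by -0.64 ± 0.07 (adjusted p = 4.8e-05) with the inhibitor in Dox-treated cells. Dox raised it by 0.82 ± 0.07 (adjusted p = 3.6e-05) with the inhibitor and by 0.33 ± 0.07 (adjusted p = 0.0077) without it. The Dox call without inhibitor ended without replicate 2 of all groups (0.32, adjusted p = 0.2). The interaction was 0.5 ± 0.1 (adjusted p = 0.022). That call ended without any one of Dox replicates 1 or 2, MSC2530818 replicate 2 or Dox plus MSC2530818 replicates 1, 2 or 3 (changes of 0.48 to 0.5, adjusted p 0.052 to 0.074). AMN, which carries cubilin to the membrane, had 1.08, 0.83 and 1.18 FPKM with Dox plus MSC2530818, 1.52, 1.21 and 1.41 FPKM with Dox, 1.38, 1.25 and 0.64 FPKM with MSC2530818 and 1.1, 1 and 0.79 FPKM in vehicle. Its Dox libraries lay above all those with Dox plus MSC2530818 and all vehicle libraries, and overlapped with those with MSC2530818. Neither the Dox change without inhibitor, 0.28 ± 0.14 (adjusted p = 0.19), nor the inhibitor change in Dox-treated cells, -0.23 ± 0.14 (adjusted p = 0.23), was called. The receptors these 2 proteins serve were all but absent, since LRP2 was at most 0.01 FPKM and CUBN at most 0.09 FPKM.

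Both tested enzymes of the brush border rose with Dox alone. MME, the peptidase neprilysin, had 5.1, 7.28 and 7.23 FPKM with Dox plus MSC2530818, 8.83, 8.61 and 9.37 FPKM with Dox, 4.4, 6.87 and 7.16 FPKM with MSC2530818 and 3.96, 5.71 and 6 FPKM in vehicle. Replicate 1 was the lowest library in 3 of the 4 groups, and the Dox libraries lay above all others. The Dox change was 0.69 ± 0.18 (adjusted p = 0.021) without inhibitor, and with the inhibitor MME was not called. The call without inhibitor ended without any one of vehicle replicate 1 or Dox replicates 1, 2 or 3 (changes of 0.54 to 0.71, adjusted p 0.052 to 0.074). The inhibitor change of MME in Dox-treated cells, -0.41 ± 0.18, was not called (adjusted p = 0.1), but was with the replicate block (adjusted p = 0.009) and with only the groups compared (adjusted p = 0.029). Its interaction, -0.6 ± 0.25, was not called either (adjusted p = 0.31), but was with the block (adjusted p = 0.04). GGT1, which breaks down glutathione at the cell surface, had 43.2, 36.3 and 37.2 FPKM with Dox plus MSC2530818, 45.4, 51.2 and 48.6 FPKM with Dox, 46.3, 40.1 and 41.7 FPKM with MSC2530818 and 42.9, 39.6 and 36.5 FPKM in vehicle. All Dox libraries lay above all vehicle libraries, and the other groups overlapped with vehicle. Its change was 0.28 ± 0.09 (adjusted p = 0.042) with Dox alone. This call ended with no filter (adjusted p = 0.062), after median-ratio scaling (0.23, adjusted p = 0.089), without the intensity trend (adjusted p = 0.051), with only the groups compared (adjusted p = 0.051), and without any one of vehicle replicates 2 or 3, Dox replicates 1, 2 or 3, MSC2530818 replicates 2 or 3 or Dox plus MSC2530818 replicate 3 (changes of 0.22 to 0.33, adjusted p 0.051 to 0.14). With the inhibitor in Dox-treated cells the change in GGT1 was -0.31 ± 0.09 (adjusted p = 0.017). That call ended after median-ratio scaling (-0.22, adjusted p = 0.076) and without any one of Dox replicates 2 or 3 or Dox plus MSC2530818 replicates 2 or 3 (changes of -0.31 to -0.26, adjusted p 0.051 to 0.071). Copies of the GGT family in the table (GGT3P, GGTLC1 and GGTLC2) never exceeded 0.32 FPKM, and reads they share with GGT1 could be split between them. ANPEP was at most 0.05 FPKM and ALPL at most 0.19 FPKM.

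The metabolic genes went different ways. MIOX, the oxygenase that starts myo-inositol breakdown in the tubule, had 10.3, 13.2 and 10.6 FPKM with Dox plus MSC2530818, 13.4, 15.6 and 14.8 FPKM with Dox, 15, 15.2 and 14.4 FPKM with MSC2530818 and 10.8, 10.2 and 10.6 FPKM in vehicle. It was high with either agent alone, without overlap with vehicle, and its range with Dox plus MSC2530818 overlapped with vehicle. Dox alone raised MIOX by 0.43 ± 0.09 (adjusted p = 0.0054) and MSC2530818 alone by 0.46 ± 0.09 (adjusted p = 0.0017). The Dox change in cells with the inhibitor was -0.37 ± 0.09 (adjusted p = 0.016), and the inhibitor change in cells with Dox was -0.34 ± 0.09 (adjusted p = 0.011). The interaction was -0.8 ± 0.12 (adjusted p = 0.005). Of these, the Dox change with the inhibitor lost its call when only the groups compared were fitted (adjusted p = 0.065) and without any one of MSC2530818 replicate 2 or Dox plus MSC2530818 replicate 3 (changes of -0.35 to -0.33, adjusted p 0.054 to 0.068). The call for Dox alone ended without replicate 2 of all groups (0.37, adjusted p = 0.086) and without replicate 3 of all groups (0.43, adjusted p = 0.082). The interaction call ended without replicate 2 of all groups.

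GATM, the first enzyme of creatine synthesis, had 3.64, 3.96 and 4.6 FPKM with Dox plus MSC2530818, 2.29, 2.22 and 2.36 FPKM with Dox, 4.38, 4.46 and 3.91 FPKM with MSC2530818 and 1.93, 1.5 and 1.94 FPKM in vehicle. Every library with the inhibitor lay above every library without it. The change was 0.91 ± 0.09 (adjusted p = 2.0e-05) with MSC2530818 alone and 0.62 ± 0.09 (adjusted p = 4.0e-04) in Dox-treated cells, and the Dox change without inhibitor was 0.24 ± 0.09 (adjusted p = 0.093). ASS1, which makes argininosuccinate on the way to arginine, ranged from 36.4 to 40.1 FPKM with Dox plus MSC2530818, 30.8 to 33.8 FPKM with Dox, 37.8 to 46.6 FPKM with MSC2530818 and 33.5 to 42.6 FPKM in vehicle. Its change with the inhibitor in Dox-treated cells, 0.26 ± 0.1, missed the threshold (adjusted p = 0.065) and passed it after median-ratio scaling (0.34), after quantile normalization (0.31), with the block and with only the groups compared. FBP1, an enzyme of gluconeogenesis, was at most 0.22 FPKM.

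PAX8, the transcription factor of the renal lineage, was the only one of the 3 listed factors present. It lies on chromosome 2, 113215997 to 113278950, minus strand, GRCh38 and had 114, 109.7 and 109 FPKM with Dox plus MSC2530818, 81.6, 87.5 and 84.5 FPKM with Dox, 129.6, 135 and 129 FPKM with MSC2530818 and 101, 90.8 and 84.4 FPKM in vehicle. The libraries with MSC2530818 were highest, those with Dox plus MSC2530818 next, and those with Dox and vehicle lowest and overlapping. The inhibitor raised PAX8 by 0.51 ± 0.06 (adjusted p = 8.5e-05) without Dox and by 0.39 ± 0.06 (adjusted p = 6.8e-04) with it. The Dox change was -0.24 ± 0.06 (adjusted p = 0.023) with the inhibitor, and without inhibitor it was -0.12 ± 0.06 (adjusted p = 0.22). The first of these Dox calls ended without any one of MSC2530818 replicate 2 or Dox plus MSC2530818 replicates 2 or 3 (changes of -0.23 to -0.22, adjusted p 0.073 to 0.078). PAX2 was at most 0.05 FPKM.

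Of the injury genes, SPP1 rose and HAVCR1 fell with either agent alone. SPP1, which encodes the secreted phosphoprotein osteopontin, lies on chromosome 4, 87975650 to 87983426, plus strand, GRCh38 and had 561, 592 and 638 FPKM with Dox plus MSC2530818, 356, 381 and 394 FPKM with Dox, 492, 699.7 and 718 FPKM with MSC2530818 and 199, 229 and 258 FPKM in vehicle. Vehicle libraries were lowest, Dox libraries next, and both groups with the inhibitor highest and overlapping. SPP1 rose by 1.46 ± 0.14 (adjusted p = 1.2e-05) with MSC2530818 alone, by 0.73 ± 0.14 (adjusted p = 0.0035) with Dox alone and by 0.66 ± 0.14 (adjusted p = 0.0034) with the inhibitor in Dox-treated cells. The call for Dox alone ended without replicate 2 of all groups (0.72, adjusted p = 0.12). In cells that already had the inhibitor the Dox change was -0.07 ± 0.14 (95% interval -0.37 to 0.22, adjusted p = 0.71). Its interaction was -0.8 ± 0.19 and just missed the threshold (adjusted p = 0.052). That interaction was called with a pseudocount of 5 (-0.79, adjusted p = 0.046), with a mean FPKM of at least 5 (adjusted p = 0.046), after median-ratio scaling (-0.83, adjusted p = 0.042) and with the replicate block (adjusted p = 0.0028).

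HAVCR1, the surface receptor KIM-1 that takes up dying cells, lies on chromosome 5, 157029413 to 157059119, minus strand, GRCh38 and had 99.6, 114 and 109 FPKM with Dox plus MSC2530818, 94.5, 105 and 101 FPKM with Dox, 92.2, 106 and 102 FPKM with MSC2530818 and 134, 136 and 124 FPKM in vehicle. All vehicle libraries lay above all others, and the remaining groups overlapped. HAVCR1 fell by 0.39 ± 0.07 with Dox alone (adjusted p = 0.0029) and by 0.39 ± 0.07 with MSC2530818 alone (adjusted p = 0.0014). The call for Dox alone ended without replicate 2 of all groups (-0.4, adjusted p = 0.083). With the inhibitor present, the Dox change was 0.11 ± 0.07 (adjusted p = 0.3). The interaction was 0.5 ± 0.1 (adjusted p = 0.023). Its call ended after quantile normalization (0.47, adjusted p = 0.065) and without any one of vehicle replicate 2, Dox replicates 1 or 3 or Dox plus MSC2530818 replicates 2 or 3 (changes of 0.45 to 0.5, adjusted p 0.062 to 0.074).

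CLU, the chaperone clusterin, which lies on chromosome 8, had 19, 17 and 18.1 FPKM with Dox plus MSC2530818, 13.3, 16.1 and 14.9 FPKM with Dox, 20.1, 18.1 and 17.8 FPKM with MSC2530818 and 14.8, 13.8 and 12 FPKM in vehicle. Its libraries with the inhibitor lay above all those without it. The change was 0.44 ± 0.09 (adjusted p = 0.0026) with MSC2530818 alone and 0.27 ± 0.09 (adjusted p = 0.036) in Dox-treated cells. The second call ended with no filter (adjusted p = 0.055) and without any one of vehicle replicate 2, Dox replicates 1 or 3, MSC2530818 replicate 2 or Dox plus MSC2530818 replicates 1 or 3 (changes of 0.2 to 0.28, adjusted p 0.05 to 0.15). MET, the receptor of hepatocyte growth factor, ranged from 29.8 to 45.9 FPKM with overlapping groups and was called in none of the comparisons. Its change with MSC2530818 alone, -0.23 ± 0.11 (adjusted p = 0.14), passed the threshold with the replicate block (adjusted p = 0.038) and without vehicle replicate 1 (-0.32, adjusted p = 0.049).

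**Figure D3:**
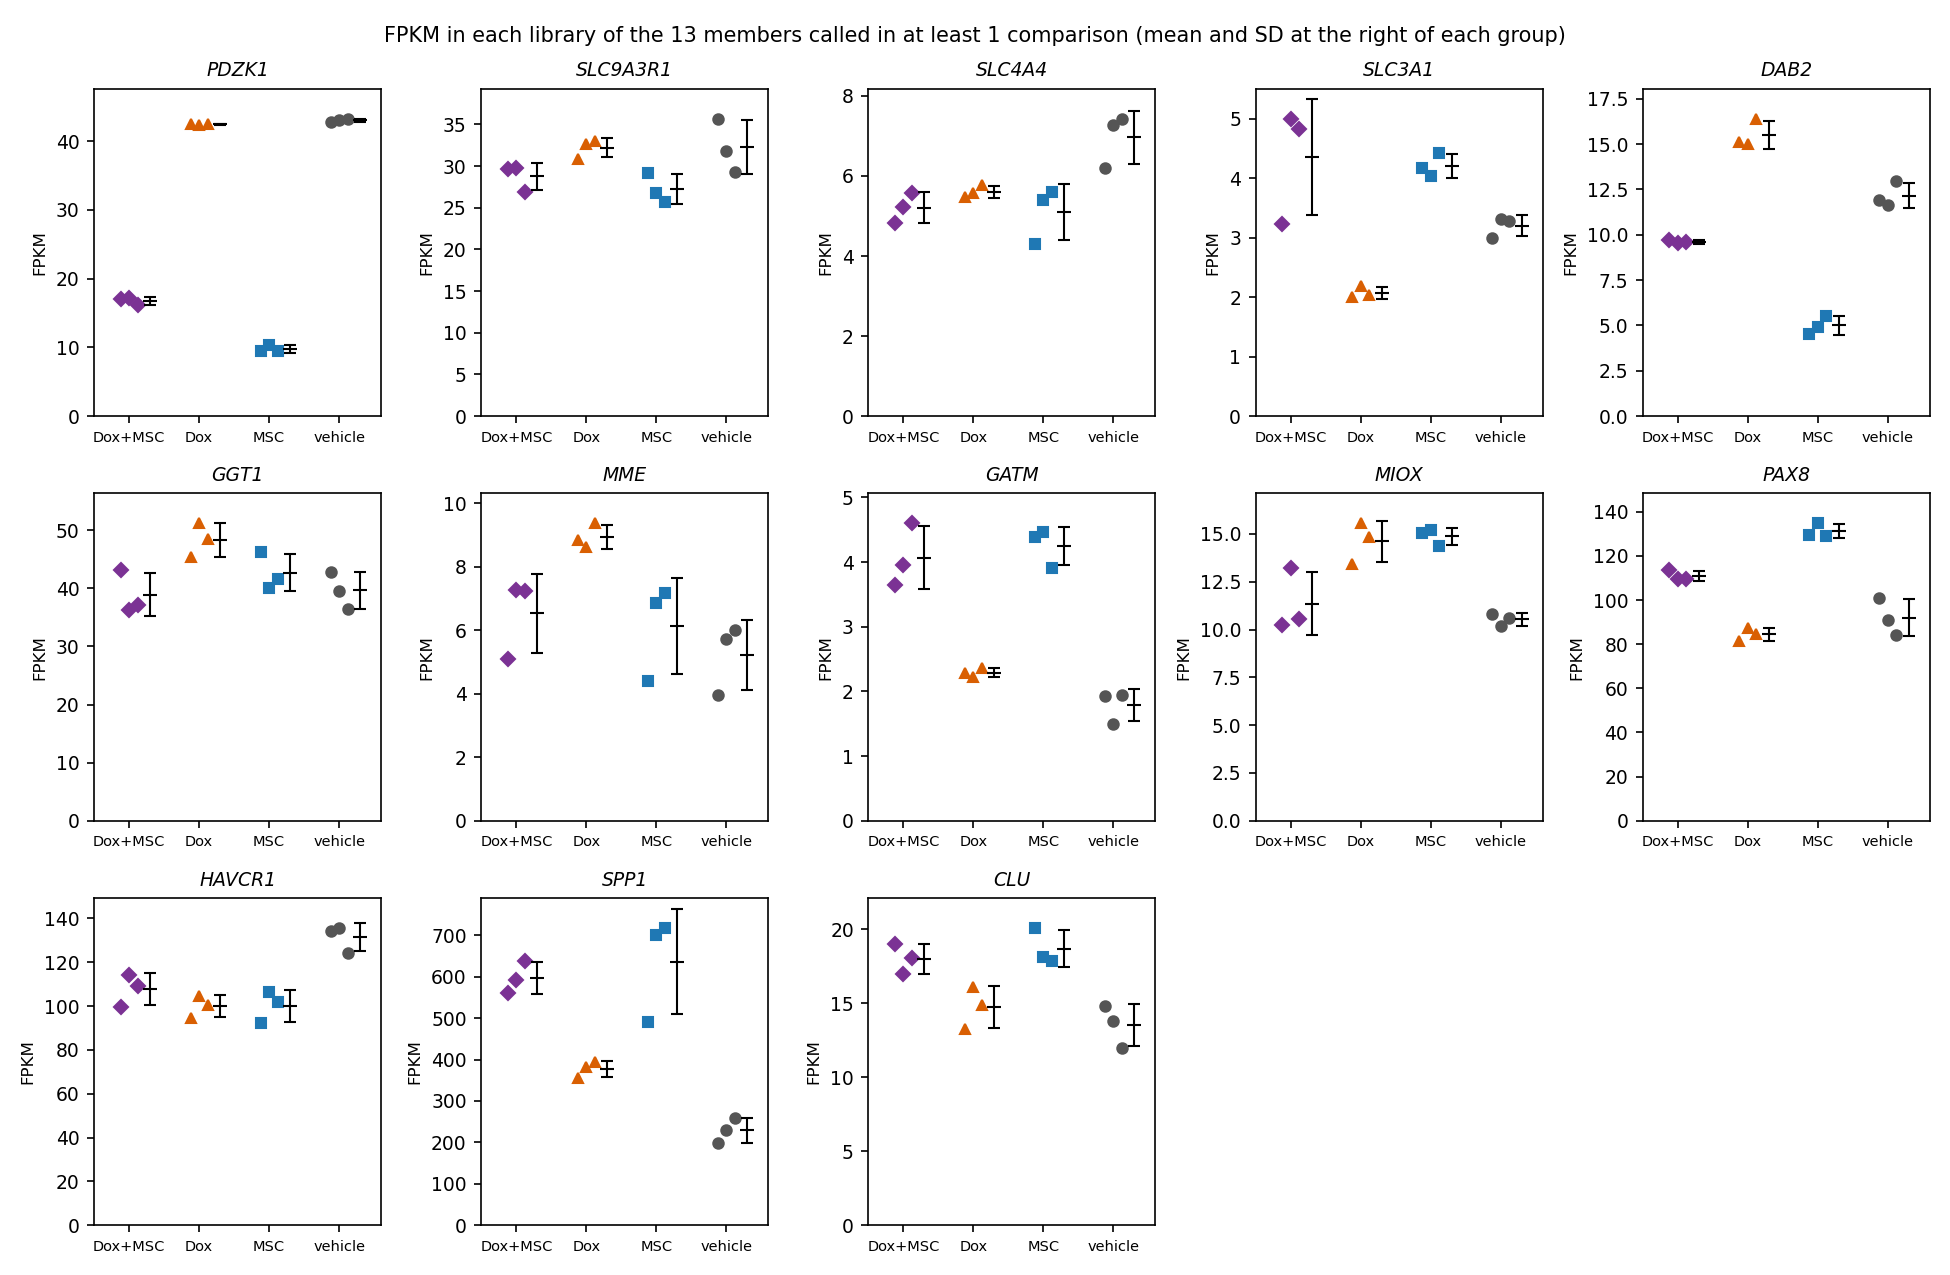
FPKM (linear axes from 0) in each library for the 13 genes called in at least 1 comparison, with the mean and SD (n = 3) at the right of each group. PDZK1 and DAB2 are lowest with MSC2530818, SPP1, GATM and PAX8 have their highest mean there, and MIOX is higher with Dox or MSC2530818 alone than with both.

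Some of the genes that did not pass the filter had libraries of different groups apart at low levels, and they are described here by their values. SOX9, a transcription factor of tubule repair, had 0.21, 0.27 and 0.3 FPKM with Dox plus MSC2530818, 0.04, 0.06 and 0.04 FPKM with Dox, 0.51, 0.51 and 0.67 FPKM with MSC2530818 and 0.13, 0.09 and 0.14 FPKM in vehicle. Every library with the inhibitor lay above every library without it, and Dox libraries lay below vehicle. PROM1, a membrane protein of regenerating tubule cells, had 0.43, 0.38 and 0.6 FPKM with Dox plus MSC2530818, 0.2, 0.2 and 0.28 FPKM with Dox, 0.49, 0.6 and 0.83 FPKM with MSC2530818 and 0.09, 0.07 and 0.08 FPKM in vehicle. Here too the inhibitor groups were above the others, and Dox libraries lay above vehicle. AQP1, the water channel of the proximal tubule, ranged from 0.17 to 0.26 FPKM with Dox plus MSC2530818, 0.07 to 0.15 FPKM with Dox, 0.31 to 0.44 FPKM with MSC2530818 and 0.15 to 0.27 FPKM in vehicle. The MSC2530818 libraries lay above all others. LCN2, the lipocalin NGAL, had 0.25, 0.69 and 0.24 FPKM with Dox plus MSC2530818, 0.73, 1.04 and 1.31 FPKM with Dox, 0.5, 0.8 and 0.38 FPKM with MSC2530818 and 0.38, 0.55 and 0.71 FPKM in vehicle, with the highest values in the Dox group. ALPL, the alkaline phosphatase, had 0.11, 0.14 and 0.16 FPKM with Dox plus MSC2530818, 0.07, 0.08 and 0.15 FPKM with Dox, 0.19, 0.11 and 0.18 FPKM with MSC2530818 and 0, 0.05 and 0 FPKM in vehicle. Vehicle libraries were lowest, without overlap with the other groups. SLC5A2 had 0.52, 0.98 and 0.64 FPKM with Dox plus MSC2530818, 0.34, 0.26 and 0.5 FPKM with Dox, 0.84, 1.38 and 0.69 FPKM with MSC2530818 and 0.62, 0.58 and 0.53 FPKM in vehicle, with the highest value in the MSC2530818 group. SLC9A3, the apical sodium proton exchanger, stayed between 0.08 and 0.27 FPKM. At 2 decimals and these levels a few fragments can decide such values.

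**Figure D4:**
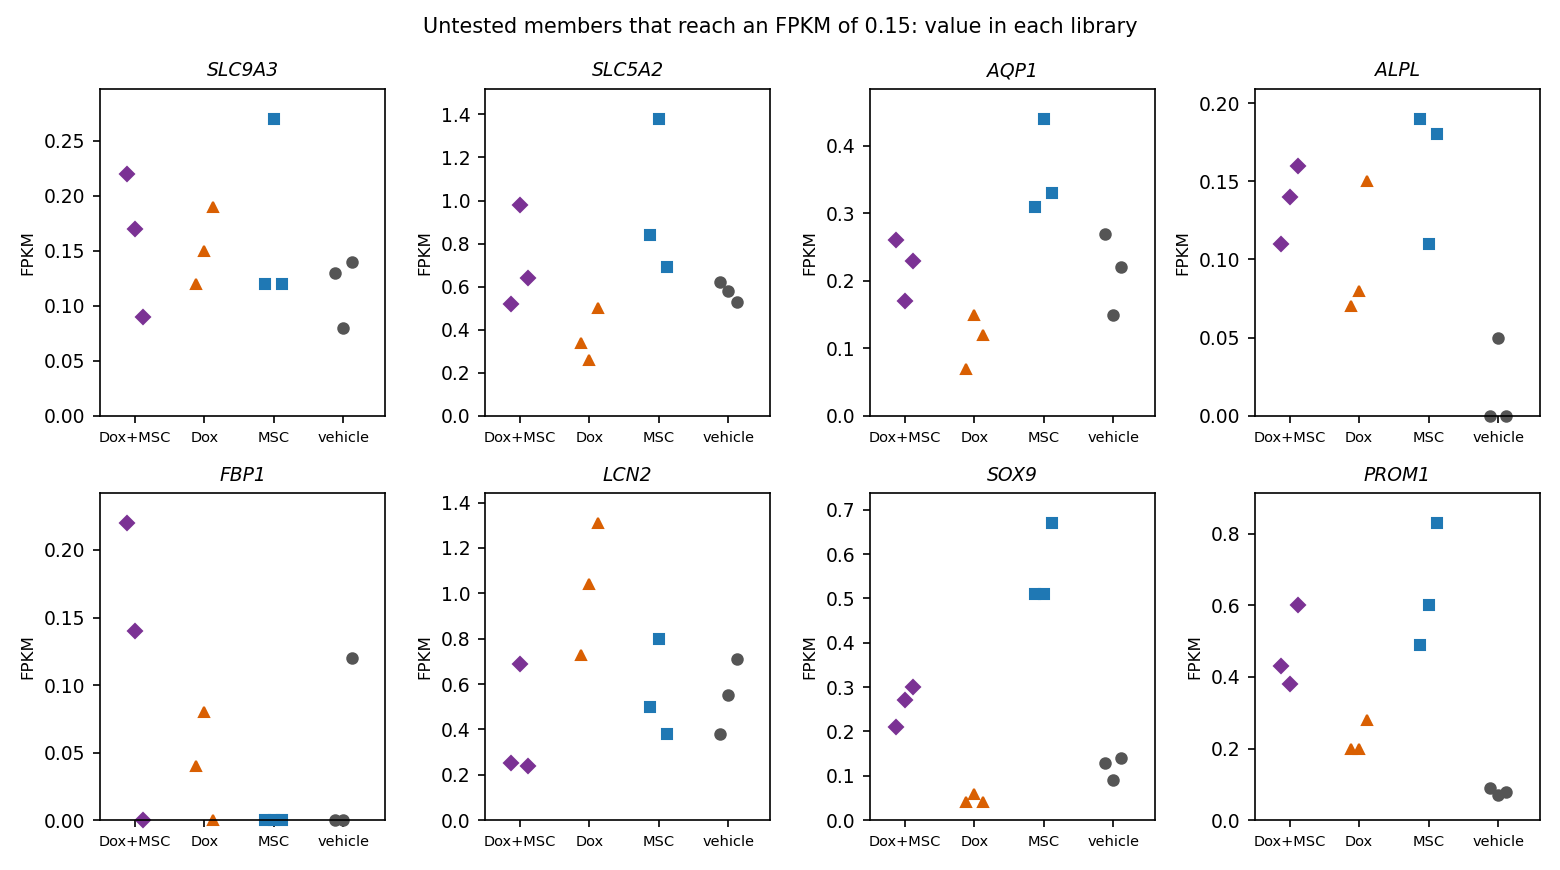
FPKM in each library for the 8 untested genes that reach 0.15 in at least 1 library, with linear axes from 0 that differ between panels. SOX9 and PROM1 are higher in both groups with MSC2530818 than in the groups without it.

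Other genes of the proximal tubule were taken from a list compiled from general knowledge, with earlier results of these data known. Its counts are therefore a description. Of 90 symbols 89 were in the table and 34 were tested. With MSC2530818 alone 18 of the 34 were called higher and 3 lower, against 11.7% and 26.3% of all tested genes. With the inhibitor in Dox-treated cells 16 were higher and 3 lower (11.3% and 20.8% of all). Their median change was 0.23 with MSC2530818 alone and 0.19 in Dox-treated cells, against -0.12 and -0.08 over all tested genes. After median-ratio scaling 21 were higher and 1 lower with MSC2530818 alone, and 16 and 2 in Dox-treated cells. The share of calls over all genes that were higher then moved from 30.8% to 55% and from 35.3% to 53.9%. SLC20A2, a phosphate transporter, averaged 23 ± 0.655 FPKM with Dox plus MSC2530818, 12.9 ± 0.552 FPKM with Dox, 24.5 ± 2.14 FPKM with MSC2530818 and 12.3 ± 0.686 FPKM in vehicle (SD, n = 3), a rise of 0.94 ± 0.07 (adjusted p = 2.1e-06) with MSC2530818 alone. CYP24A1, which inactivates vitamin D, rose by 0.87 ± 0.07 (adjusted p = 4.7e-06) with MSC2530818 alone and fell by 1.11 ± 0.07 with Dox alone (adjusted p = 2.3e-06). ABCB1, a drug efflux pump, was the most changed of the list in Dox-treated cells, at 1.29 ± 0.14 (adjusted p = 3.4e-05). UGT1A9, a glucuronosyltransferase, shares exons with other UGT1A genes and is therefore uncertain. It averaged 0.333 FPKM with Dox plus MSC2530818, 0.0533 FPKM with Dox, 1.24 FPKM with MSC2530818 and 0.0567 FPKM in vehicle. UGT1A9 passed the filter only through the MSC2530818 group, so its called change there, 1.08 ± 0.11, is tied to how it entered the test. SLC16A9 and SLC22A4 of this list also averaged above an FPKM of 1 only in groups with the inhibitor, and are among the genes called higher.

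Fewer genes of this list were called with Dox. Without inhibitor 4 rose and 7 fell (10.6% and 7.31% of all tested genes), and with the inhibitor 2 rose and 9 fell (12.2% and 6.06%). After median-ratio scaling 4 rose and 8 fell without inhibitor, and 1 rose and 14 fell with it. The peptidase gene DPP4 rose by 1.03 ± 0.14 (adjusted p = 3.9e-04) and CLCN5, an endosomal chloride exchanger, by 1.02 ± 0.11 (adjusted p = 9.6e-05) with Dox alone. With the inhibitor present, CYP24A1 had the largest Dox change of the list, a fall of 0.99 ± 0.07 (adjusted p = 1.4e-05). UGT1A9, with the limit given above, changed by -0.75 ± 0.11, and the carnitine transporter gene SLC22A5 fell by 0.64 ± 0.11 (adjusted p = 0.0029). The interaction was called for 2 of the 34, both lower (1.91% of all tested genes). They were the phosphate transporter gene SLC20A1 at -0.46 ± 0.07 (adjusted p = 0.0051) and UGT1A9 at -0.74 ± 0.15, which passed the filter only through the MSC2530818 group.

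Of 56 further symbols for tubular injury and repair, also listed with earlier results of these data known, 52 were in the table and 45 were tested. With MSC2530818 alone 27 rose and 6 fell, against 11.7% and 26.3% of all tested genes, and in Dox-treated cells 27 rose and 7 fell with the inhibitor (11.3% and 20.8% of all). CCL2, called higher in both, averaged above an FPKM of 1 only in groups with the inhibitor. Dox alone lowered 22 and raised 5 (7.31% and 10.6% of all tested genes), and with the inhibitor it lowered 17 and raised 2 (6.06% and 12.2%). The median change was 0.51 with MSC2530818 alone and -0.29 with Dox alone, against -0.12 and 0.04 over all tested genes. After median-ratio scaling 30 rose and 4 fell with MSC2530818 alone, and 4 rose and 25 fell with Dox alone. The share of calls over all genes that were higher then moved from 30.8% to 55% and from 59.2% to 43.4%. PDGFB, a growth factor for pericytes, averaged 29.3 ± 2.25 FPKM with Dox plus MSC2530818, 2.4 ± 0.156 FPKM with Dox, 59.4 ± 4.12 FPKM with MSC2530818 and 6.06 ± 0.641 FPKM in vehicle (SD, n = 3). It rose by 3.1 ± 0.08 (adjusted p = 2.7e-09) with MSC2530818 alone and fell by 1.05 ± 0.08 with Dox alone (adjusted p = 8.7e-06). AKAP12, a scaffold for kinases, and the matrix gene TNC rose by 2.04 ± 0.12 (adjusted p = 4.5e-07) and 1.43 ± 0.09 (adjusted p = 8.9e-07) with MSC2530818 alone. Dox alone changed the keratin gene KRT7 by -0.93 ± 0.09 (adjusted p = 4.6e-05) and raised CDKN1A, a cell cycle inhibitor, by 0.92 ± 0.1 (adjusted p = 8.6e-05). Some called genes went the same way with either agent alone, among them CDKN1A and GDF15, called higher with each. The CDKN1A change with MSC2530818 alone was 0.31 ± 0.1 (adjusted p = 0.029). The interaction was called for 9 of the 45, 4 higher and 5 lower (0.909% and 1.91% of all tested genes). Among them were the stress cytokine gene GDF15 at -0.96 ± 0.14 (adjusted p = 0.0031), the small heat shock protein gene CRYAB at -0.96 ± 0.14 (adjusted p = 0.0035) and the cadherin gene CDH6 at 0.95 ± 0.16 (adjusted p = 0.0074). SPP1 and CLU thus rose with the inhibitor beside most of the called genes of this list, while HAVCR1 fell with MSC2530818 alone.

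**Figure D5:**
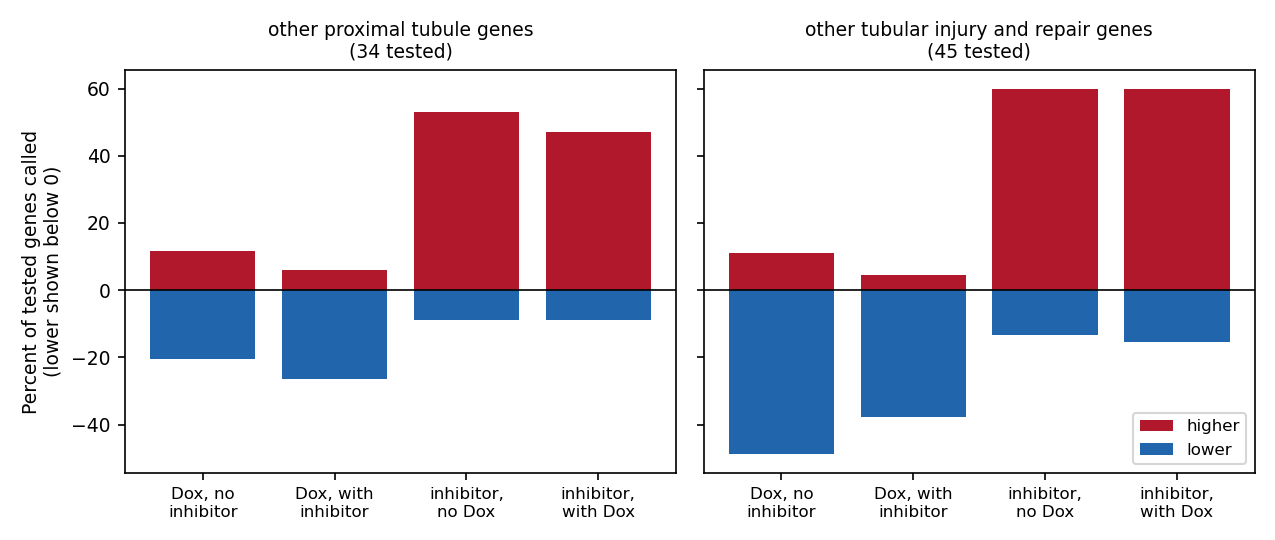
Percent of the tested genes of each list that were called higher (above 0) or lower (below 0) in 4 comparisons, for 34 other proximal tubule genes and 45 other injury and repair genes. Bars above 0 are tallest for the 2 inhibitor comparisons, where 18 and 16 of 34 and 27 and 27 of 45 genes were higher.

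Some markers of other cell types also had different levels with the inhibitor. Of 5 fibroblast and pericyte markers 3 reached an FPKM of 1 (COL1A1, ACTA2 and RGS5), and the summed level of the list was 17.7 to 19.9 FPKM with Dox plus MSC2530818, 6.86 to 7.74 FPKM with Dox, 13 to 14.3 FPKM with MSC2530818 and 7.92 to 8.44 FPKM in vehicle. The higher sums with the inhibitor came from ACTA2 and RGS5. RGS5 averaged 7.32, 3.29, 4.77 and 3.3 FPKM in these groups, in the same order. Its libraries with Dox plus MSC2530818 lay above those with Dox. With MSC2530818 (3.5 to 5.67 FPKM) they overlapped with vehicle (2.64 to 4.07 FPKM). COL1A1 had lower means with the inhibitor (3.48, 3.75, 3.64 and 4.33 FPKM), but its libraries with and without the inhibitor overlapped. PDGFRB was at most 0.04 FPKM. ACTA2, the smooth muscle actin gene, had 8.4, 7.41 and 7.72 FPKM with Dox plus MSC2530818, 0.29, 0.14 and 0.4 FPKM with Dox, 6.02, 4.95 and 4.61 FPKM with MSC2530818 and 0.43, 0.47 and 0.47 FPKM in vehicle, and the fibroblast marker DCN was at most 0.05 FPKM. CLDN16, a claudin of the thick ascending limb, had 9.26, 8.88 and 9.36 FPKM with Dox plus MSC2530818, 3.67, 3.58 and 4.06 FPKM with Dox, 13.7, 16.5 and 17.2 FPKM with MSC2530818 and 4.62, 4.24 and 5.02 FPKM in vehicle. The other 4 markers of that segment never reached an FPKM of 1, nor did any of 4 distal convoluted and connecting tubule or 5 endothelial markers. Of 8 collecting duct markers 2 reached 1 (AVPR2 and HSD11B2), and of 5 podocyte markers SYNPO and PODXL did. Their summed levels were 5.62 to 6.17 and 19.4 to 21.1 FPKM with Dox plus MSC2530818, 4.52 to 5.66 and 17.4 to 18.1 FPKM with Dox, 5.64 to 7.51 and 25.3 to 27.3 FPKM with MSC2530818, and 3.56 to 4.94 and 18.2 to 21.5 FPKM in vehicle. Of 5 leukocyte markers CD68, a lysosomal protein, alone reached 1, at a list sum of 29.8 to 34 FPKM with Dox plus MSC2530818, 53.2 to 58.6 FPKM with Dox, 25.7 to 31.3 FPKM with MSC2530818 and 34.4 to 42.4 FPKM in vehicle, and the common leukocyte gene PTPRC was at most 0.02 FPKM. The part of these markers in the changes above was not tested.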

How the data were processed

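RNA of 12 libraries, 3 per group, was analysed from 1 table. The authors deposited FPKM per gene symbol, rounded to 2 decimals, 1 column per library; columns were matched to samples by name. Per the submitters' processing notes, Trim Galore 0.6.7, Salmon 1.9.0 and the builds GRCh38.p13 and hg38 were used, with no role or order given. Per the labels' protocols, RNA was extracted with TRIzol and libraries were made with a stranded mRNA kit; labels call the replicates independent biological replicates. The sources used here state neither the annotation nor how genes were summed. Depth is unknown, so no counting intervals were computed. From log2(FPKM + 1), limma 3.58.1 in R 4.3.3 fitted 4 group means (empirical Bayes, intensity trend, 8 residual degrees of freedom). The fit was tested on simulated data. Same-numbered libraries of different groups deviated together in part (18 pairs, r -0.09 to 0.69), so the number was not used as a pairing. In Dox plus MSC2530818 against MSC2530818, however, all 3 pairs exceeded 0.1 (0.55, 0.13 and 0.34), so blocked values that changed a call there are given beside it. In MSC2530818 against vehicle the 3 pairs had r of 0.69, 0.097 and 0.51, so 1 fell just short of 0.1. Members and lists were chosen with earlier results of these data known. All 41 members are accounted for, and up to 3 called genes per further list and comparison were named, those of largest change; ACTA2 and CLDN16 were chosen after their values were seen. Positions are from GENCODE 29 and promoter windows from RefSeq. Alternatives covered pseudocount, filter, scaling, trend, block, fitted groups and left-out libraries.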

Additional observations from a re-analysis of the deposited data

Results flagged for a closer look

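The Dox change was called as different between cells with and without MSC2530818 for 4 of the 17 tested genes, by the interaction term of the limma fit (2.82% of all tested genes). The calls for DAB2 and HAVCR1 each ended under 6 of 20 other settings, and none of the 4 held without replicate 2 of all groups. The brush border scaffold PDZK1 had an interaction of 0.75 on the log2(FPKM + 1) scale, with Dox libraries higher than those without Dox in the presence of the inhibitor, and level with vehicle in its absence. DAB2 had an interaction of 0.50, with a higher level under Dox in both settings. MIOX had an interaction of -0.80, being higher with Dox alone and lower with Dox in the presence of the inhibitor. HAVCR1 had an interaction of 0.50, being lower with Dox alone and not called with the inhibitor. The Dox change of TFE3 itself was smaller with the inhibitor, and its part in these differences was not tested. With 3 libraries per group, a single library far from the others was not tested for.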

How the results depend on the processing

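Of the 34 calls of single genes, 24 held under each other setting that gave them a value (20 or 21 settings each, not counting those that leave out a replicate of all groups), 10 ended under at least 1, and 0 changed sign. Leaving out 1 library at a time gave 4 to 8 called genes for Dox alone, 2 to 5 for Dox with the inhibitor, 9 to 11 for MSC2530818 alone, 7 to 11 for the inhibitor with Dox and 2 to 5 for the interaction. The count for Dox alone was 4 without Dox replicate 1 or 3, and that for Dox with the inhibitor was 2 without MSC2530818 replicate 2 or Dox plus MSC2530818 replicate 3. The interaction count was 2 without Dox replicate 1 or Dox plus MSC2530818 replicate 2 or 3. Leaving out replicate 1, 2 or 3 of all groups, chosen after seeing the data because replicate 1 had the highest FPKM sums, left 9, 0 and 3 genes for Dox alone, 4, 2 and 2 for Dox with the inhibitor, and 7, 0 and 1 for the interaction. Those limma fits had 4 residual degrees of freedom, and where they called 0 genes, 6 for Dox alone and 5 for the interaction had an unadjusted p under 0.05. Calls over all tested genes moved too, for Dox alone and for Dox with the inhibitor. They were more without replicate 1 than with all libraries, and far fewer without replicate 2 or 3. The SPP1 change with Dox in the presence of the inhibitor, which was not called, ranged from -0.25 without MSC2530818 replicate 1 to 0.024 without MSC2530818 replicate 3, and was 0.0047 without MSC2530818 replicate 2 and 0.0094 without replicate 2 of all groups. Same-numbered libraries did not all deviate together (median r 0.12 over 18 pairs), so they were not treated as paired. A replicate block gave 8, 5, 12, 11 and 6 called genes for Dox alone, Dox with the inhibitor, MSC2530818 alone, the inhibitor with Dox and the interaction, against 7, 4, 10, 9 and 4 without it. Calls over all tested genes, 2269 for Dox alone and 2304 for Dox with the inhibitor without the block, rose strongly with it. The counts of listed genes thus rose along with calls over all genes in those comparisons.

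Rescaling moved the balance of calls over all genes. The share of calls that were higher was 59.2% for Dox alone as deposited and 43.4% after median-ratio scaling, 66.7% and 35.3% for Dox with the inhibitor, 30.8% and 55% for MSC2530818 alone, and 35.3% and 53.9% for the inhibitor with Dox. With no filter 38 of the 41 genes were tested, and SOX9, PROM1, ALPL and AQP1 were then called higher with MSC2530818 alone. In Dox-treated cells the inhibitor change was then called for SOX9 (0.27), PROM1 (0.26) and LCN2 (-0.55), and the Dox change with the inhibitor for SOX9 (-0.31). Depth is unknown, so the counting error of low values could not be given.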
